A study of Mus musculus with 96 samples.

Results

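The comparison set the liver of wild-type (WT) mice against their skeletal muscle at a fasted baseline. It was made up of every array labelled as WT liver, 6 in number, and every array labelled as WT muscle, also 6, out of 96 arrays in the series. The 6 WT animals gave both tissues, so each liver array had a muscle array with the same animal number. The animals are called 1 to 6 here in the order of their label numbers, which fall into a lower series (1 to 3) and a higher one (4 to 6). The mice were males of the strain labelled C57/Bl6, had free access to a low-fat diet, and were killed at 8 a.m. after a fast of 12 hours. The sources used here do not state which muscle was taken, how old the mice were or whether tissue was pooled. The last comparison also used liver and muscle of 3 further groups of 6 males, killed in the same way. SIRT1Tg mice, labelled SIRT1Tg/Tg, had free access to the same diet, and the sources used here name no promoter for their transgene. CR mice were WT C57/Bl6 animals held for 3 months under the caloric restriction that the labels call EODF, and EX mice were WT C57/Bl6 animals with free access to food and a running wheel for 10 weeks.

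Each array measured 25697 probes. Values are given as log2 signal, the deposited log2 intensities, which had the same distribution on every array. A probe counted as detected where its intensity lay above the upper 0.05 tail of the background of its array, and between 9993 and 12472 probes were detected on the liver arrays, against 10024 to 11521 on the muscle arrays. Background had not been subtracted, so a probe that was not detected read near 6.6, and differences of dim genes are understated. Differences are log2 signal in liver minus log2 signal in muscle, as the limma estimate ± SE over 6 arrays of each tissue. A gene is called higher or lower in liver where its Benjamini-Hochberg adjusted p was under 0.05 over all genes tested. Where a gene was not detected on any array of a tissue, the fold is given as a lower bound (at least N-fold), and the log2 difference beside it is one of signals that include background. Genes were tested where their probe was detected on at least 6 of the 12 arrays. A gene undetected throughout a tissue was thus tested only if all 6 arrays of the other detected it. That filter all but fixed the direction of such genes, 547 undetected on every muscle array and 340 on every liver array. Counts of them describe the lists and test nothing. Fewer cells of a type and less RNA per cell cannot be told apart in such tissue samples.

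Liver is built mostly of hepatocytes, which make the proteins of blood plasma, release glucose and ketone bodies during a fast, turn ammonia into urea and convert foreign compounds and cholesterol into forms that leave the body. Skeletal muscle is built of multinucleate fibres packed with sarcomeres, in which myosin thick filaments pull on actin thin filaments when calcium leaves the sarcoplasmic reticulum. Many steps of energy metabolism are catalysed in both tissues, often by different members of a gene family, so that the same reaction is encoded by one gene in liver and by its paralog in muscle.

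The promoters of 5 of the genes that differed most are shown because their regulatory sequences have long served as models of tissue-restricted transcription. Each sequence runs over the 250 bases before the transcription start, from the RefSeq promoter table of GRCm38.p6, written 5′ to 3′ on the strand of the gene. Capitals mark the motif named after it. Serpina1b encodes an alpha-1-antitrypsin, a plasma protease inhibitor, and Fga the alpha chain of fibrinogen, and capitals mark GTTAAT, the core of sites bound by the liver factor HNF1, which appears as its reverse complement in Fga. Acta1 encodes the actin of skeletal muscle and its capitals mark a CArG box, the site of serum response factor. Mylpf encodes the fast regulatory myosin light chain and its capitals mark CAGCTG, an E box of the kind that myogenic factors bind. Pvalb encodes parvalbumin, a calcium buffer, and its capitals mark a MEF2 box.
Serpina1b, chr12:103738190-103738439, minus strand: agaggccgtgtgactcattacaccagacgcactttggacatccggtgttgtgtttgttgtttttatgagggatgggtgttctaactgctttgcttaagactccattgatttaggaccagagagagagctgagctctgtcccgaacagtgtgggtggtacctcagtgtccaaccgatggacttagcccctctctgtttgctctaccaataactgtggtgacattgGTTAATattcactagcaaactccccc
Fga, chr3:83025903-83026152, plus strand: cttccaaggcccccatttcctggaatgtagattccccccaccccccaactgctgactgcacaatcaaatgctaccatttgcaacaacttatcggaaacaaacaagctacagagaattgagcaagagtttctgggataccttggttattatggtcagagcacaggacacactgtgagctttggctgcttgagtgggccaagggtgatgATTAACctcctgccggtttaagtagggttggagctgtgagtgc
Acta1, chr8:123894776-123895025, minus strand: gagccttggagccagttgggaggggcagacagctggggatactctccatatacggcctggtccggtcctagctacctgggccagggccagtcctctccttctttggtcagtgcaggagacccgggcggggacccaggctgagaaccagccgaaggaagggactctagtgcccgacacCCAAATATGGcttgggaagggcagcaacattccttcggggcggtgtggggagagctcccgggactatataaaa
Mylpf, chr7:127211358-127211607, plus strand: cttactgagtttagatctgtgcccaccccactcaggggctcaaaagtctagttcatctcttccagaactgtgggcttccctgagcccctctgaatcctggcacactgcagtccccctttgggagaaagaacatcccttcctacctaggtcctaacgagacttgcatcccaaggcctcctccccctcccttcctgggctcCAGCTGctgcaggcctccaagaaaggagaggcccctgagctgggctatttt
Pvalb, chr15:78206401-78206650, minus strand: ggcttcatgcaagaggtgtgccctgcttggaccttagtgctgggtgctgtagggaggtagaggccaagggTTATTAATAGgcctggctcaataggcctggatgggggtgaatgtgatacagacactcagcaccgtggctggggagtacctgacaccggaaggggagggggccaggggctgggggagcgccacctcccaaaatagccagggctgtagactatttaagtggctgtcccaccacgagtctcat

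In these windows GTTAAT ended 21 bases before the start in Serpina1b and 38 bases before it in Fga, the CArG box ended 64 bases before the start in Acta1, CAGCTG 46 bases before it in Mylpf and the MEF2 box 171 bases before it in Pvalb. On both strands, 13 motifs were searched in the same 250 bases of the 6825 tested genes that the promoter table holds. GTTAAT occurred in 13.5% of the 393 genes called at least 4-fold higher in liver, in 5.95% of the 269 called at least 4-fold lower, and in 6.43% of all 32851 promoters of the table. CAAAGTCC, a core of HNF4 sites, occurred in 5.09%, 2.97% and 1.196% of the same sets. The CArG box was found in 2.29% of the genes at least 4-fold higher in liver, 4.83% of those at least 4-fold lower and 1.47% of all promoters. The MEF2 box was found in 1.53%, 6.32% and 2.92%, and CAGCTG in 14.5%, 21.9% and 13.001%. CAGGTG, another E box, was about as common in both sets, at 21.9%, 24.5% and 17.2%. CACGTG, an E box of another kind, occurred in 9.16%, 8.18% and 6.02%. TATAAA, the TATA box, was present in 18.3% of the genes at least 4-fold higher in liver, 12.6% of those at least 4-fold lower and 12.4% of all promoters. Among all 6825 tested genes the shares were 5.51% for GTTAAT, 1.67% for CAAAGTCC, 1.58% for the CArG box, 2.12% for the MEF2 box, 14.447% for CAGCTG, 18.5% for CAGGTG, 10.1% for CACGTG and 8.64% for TATAAA. The other motifs are given in the same order, with the share of all tested genes last. The HNF4 core CAAAGT, contained in the longer one above, was in 21.6%, 15.99%, 12.6% and 13.3%. The C/EBP site TTGCNCAA was in 6.87%, 4.09%, 2.61% and 3.09%. The nuclear receptor hexamers TGACCT and TGACCC, counted as one motif, were in 36.1%, 26.8%, 23.8% and 25.7%. The NRF1 site was in 0.509%, 1.86%, 0.782% and 1.82%. The estrogen-related receptor site TCAAGGTCA was in 1 gene of each 4-fold set, 0.387% of all promoters and 0.337% of tested genes. A match describes the letters of a window and nothing more.

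The markers of hepatocytes and of muscle fibres were checked against the label of each tissue. Of 7 hepatocyte markers, 5 were detected on all 6 liver arrays, among them Cps1, the first enzyme of the urea cycle, with 11.14 to 12.71 (median 11.85) in liver, against 6.55 to 6.74 (median 6.63) in muscle. The probes of the other two, Alb and Tat, read near background in both tissues, Alb on 4 of 6 liver arrays just above it, so their RNA was not measured here. Of the 6 muscle fibre markers on the array, all 6 were detected on every muscle array and 0 on any liver array, and their mean level ran from 6.59 to 6.65 on the liver arrays, against 13.4 to 13.6 on the muscle arrays.

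Markers of other cells were present in both tissues. Among 6 adipocyte markers, Adipoq, the fat hormone adiponectin, was not detected on any liver array but on all 6 muscle arrays, with 6.66 to 6.82 (median 6.68) in liver, against 8.16 to 9.90 (median 8.84) in muscle, and Lep, the gene of leptin, on 1 liver and 5 muscle arrays. The mean of the 6 adipocyte markers ran from 6.63 to 6.81 on the liver arrays and from 6.97 to 7.46 on the muscle arrays, while Ucp1 was not detected in either. Clec4f, a receptor of Kupffer cells, was detected on liver arrays alone, at 8.18 to 9.23. Erythroid RNA was high in both, with Hba-a1, an alpha globin, at 10.97 to 12.77 (median 12.05) in liver, against 12.05 to 13.76 (median 13.21) in muscle, a difference of -1.25 ± 0.31. Alas2, which starts haem synthesis in erythroid cells, went the other way, with 9.14 to 10.07 (median 9.81) in liver, against 7.60 to 9.24 (median 8.72) in muscle, a difference of 1.14 ± 0.27 (adjusted p = 0.00184). Cela1, listed as a marker of pancreatic acinar cells, read 8.13 to 8.78 in liver, where Prss2 and Cpa1, digestive enzymes of the same cells, were not detected on any array. The part of these cells in the differences below was not tested.

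Most of the measured transcriptome differed between the tissues. Of 9059 genes tested, 6817 were called, which is 75.3%, and of these 2960 were higher in liver (32.7% of all tested) and 3857 lower (42.6%). The median difference over all genes tested was -0.06 and the median size of a difference, whatever its sign, was 0.43. Differences of at least 2-fold were called for 2205 genes (24.3%), 1122 higher in liver (12.4%) and 1083 lower (12%), and for 3853 once background was corrected with normexp, 1804 higher and 2049 lower. Median scaling gave 1186 higher and 917 lower, so which direction had more 2-fold genes depended on the processing. The size of the difference passed 4-fold for 907 genes and 16-fold for 262. For 2300 genes every liver array lay above every muscle array, and for 3016 every muscle array lay above every liver array. Within each of the 4 slides that held both tissues, between 2203 and 2205 of the 2205 genes kept their direction. These genes were picked from the same arrays, so agreement within a slide was largely fixed in advance. It does not test the part of the slide. Of the called genes, 2702 differed by under 0.5 on the log2 scale.

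The largest differences in favour of liver belonged to proteins secreted into plasma. Serpina1b was the brightest probe of every liver array, at 14.19, against 6.62 to 6.72 in muscle, at least 171-fold higher in liver (adjusted p = 8.04e-21). Because the top rank has the same value on every normalised array, its liver SD of 0 is a product of the scaling. Hpx, hemopexin, the carrier of free haem, gave 13.96 to 14.11 (median 14.04) in liver, against 6.64 to 6.71 (median 6.67) in muscle, at least 154-fold higher. Apoc3, an apolipoprotein that slows the clearance of triglyceride-rich particles, gave 13.96 to 14.11 (median 14.005) in liver, against 6.60 to 6.74 (median 6.70) in muscle, at least 152-fold higher. In each of these the groups lay about 7 log2 units apart with no overlap. The rest of the 12 were Kng1 (kininogen), Serpina1c and Serpina1d (alpha-1-antitrypsins), Ahsg (fetuin A), Ambp (the precursor of alpha-1-microglobulin and bikunin), Apoa1 and Apoa2 (the main proteins of high-density lipoprotein), Azgp1 (zinc alpha-2-glycoprotein) and Mat1a, whose product makes S-adenosylmethionine in hepatocytes, with differences from 6.98 to 7.16. Mat1a was the one member of these 12 that is not a secreted protein. Genes of the Serpina1 family are near copies of each other, and which copy a probe reads is uncertain.

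The largest differences in favour of muscle belonged to fast sarcomeres and to energy supply. Tnnc2, the calcium sensor of the fast troponin complex, was the brightest probe of every muscle array at 14.19, against 6.60 to 6.71 in liver, so liver was at least 174-fold lower (adjusted p = 8.04e-21). Pvalb gave 6.60 to 6.68 (median 6.65) in liver, against 14.005 to 14.11 (median 14.04) in muscle, at least 158-fold lower in liver. Myl1, a fast alkali myosin light chain, gave 6.62 to 6.72 (median 6.64) in liver, against 13.96 to 14.11 (median 14.02) in muscle, at least 156-fold lower. Mylpf, Acta1, Actn3 (the alpha-actinin of fast fibres), Tpm2 (beta-tropomyosin), Ckm (muscle creatine kinase), Cox6a2 (the muscle form of a cytochrome oxidase subunit), Tnni2 (fast troponin I) and Atp2a1 (the calcium pump of the sarcoplasmic reticulum) followed, with differences from -7.35 to -6.93. The remaining one of the 12 was a probe to which the tables used here give no gene. Between the tissues no array of one group reached the range of the other for any of these 24 features.

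**Figure D1:**
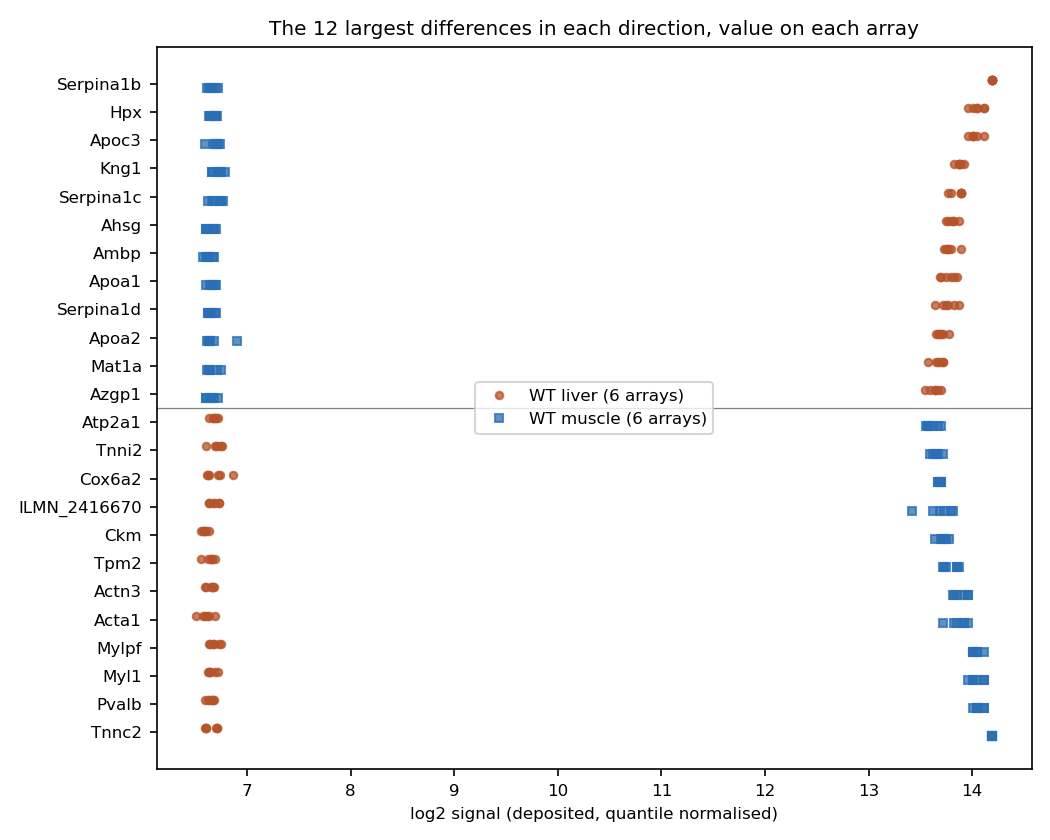
Log2 signal on each of the 12 arrays for the 12 features with the largest differences in each direction, with WT liver as circles and WT muscle as squares. The expressing tissue lies between 13.4 and 14.2 throughout and the other between 6.5 and 6.9, at or near background.

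Plasma carriers and protease inhibitors had the highest median difference of the gene lists. All 32 tested members were higher in liver, against 32.7% of all genes, with a median difference of 5.52 against -0.06 over all genes. Of them, 22 were not detected on any muscle array. Every list count below is to be read beside the 32.7% of all genes called higher in liver and the 42.6% called lower. Ttr, transthyretin, the carrier of thyroxine and retinol-binding protein, gave 13.48 to 13.67 (median 13.61) in liver, against 6.62 to 6.71 (median 6.67) in muscle, at least 113-fold higher in liver. Trf, transferrin, the iron carrier, gave 13.96 to 14.11 (median 14.04) in liver, against 7.67 to 8.86 (median 8.22) in muscle, so that muscle arrays too read it well above background, and the difference was 5.82 ± 0.15. Hp (haptoglobin, 6.30), Orm1 (orosomucoid, 5.98), Cp (ceruloplasmin, 4.54) and Vtn (vitronectin, 5.51) were likewise detected on all 6 muscle arrays. The smallest difference was that of Amy1, a salivary and hepatic amylase, at 1.23 ± 0.14.

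Lipoprotein, clotting and complement genes repeated that one-sidedness. All 17 tested apolipoprotein and lipoprotein genes were higher in liver (median 4.40), from Apoc3 down to Scarb1, the receptor for high-density lipoprotein, at 0.32 ± 0.05, at least 1.1-fold. Of the 17, 9 were not detected on any muscle array. Mttp, which loads lipid onto nascent lipoprotein particles, gave 8.46 to 8.93 (median 8.65) in liver, against 6.61 to 6.84 (median 6.72) in muscle, and its difference was 1.93 ± 0.08 (adjusted p = 1.37e-11). Apoe (5.69) and Apoc1 (6.38) were detected on all 6 muscle arrays as well. All 20 tested genes of coagulation and fibrinolysis were higher in liver by at least 2-fold (median 4.68), 13 of them undetected on any muscle array. F2, prothrombin, gave 11.99 to 12.27 (median 12.08) in liver, against 6.67 to 6.89 (median 6.76) in muscle, a difference of 5.33 ± 0.06. Fga (6.98, at least 116-fold) and Kng1 stood at the upper end and F5, coagulation factor V (1.81, at least 3.2-fold), at the lower end, while the probe of Fgb, the fibrinogen beta chain, was not detected in either tissue. All 16 tested complement genes were higher in liver (median 4.03), 8 of them undetected on any muscle array. C9, the pore-forming component, was at least 27.2-fold higher, Cfi, the factor I that cuts C3b and C4b, at least 37.3-fold, and C1s1, a protease of the first component, differed least, by 0.93 ± 0.18.

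Nitrogen metabolism lay on the liver side at nearly every step. All 8 urea cycle genes were higher in liver, with a median of 2.75, and 5 of them were not detected on any muscle array. Arg1, arginase, gave 12.22 to 13.03 (median 12.47) in liver, against 6.52 to 6.62 (median 6.58) in muscle, at least 54.4-fold higher, and Cps1 was at least 33.5-fold higher. Otc, ornithine transcarbamylase, differed by 1.06 ± 0.09, at least 1.9-fold and Slc25a13, the aspartate-glutamate carrier citrin, by 0.40 ± 0.06, at least 1.21-fold, both from probes that were dim in liver. Of 30 tested genes of amino acid breakdown, 16 were not detected on any muscle array. Of the 30, 28 were higher in liver, 27 of them by at least 2-fold. They covered methionine (Mat1a, 7.005; Gnmt, 6.24), tyrosine (Hpd, 4.94, at least 26.7-fold; Fah, 5.30), histidine (Hal, 4.53, at least 21-fold), glycine (Gldc, 4.42) and tryptophan (Tdo2, 1.17, at least 2.03-fold). Got1, the cytosolic aspartate aminotransferase shared by both tissues, was not called (-0.07 ± 0.21), and Asrgl1, an asparaginase, was lower in liver (-0.23 ± 0.05).

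Branched-chain amino acid breakdown divided by gene. Of 15 tested members, 7 were higher in liver, 3 lower and 5 not called, beside 32.7% higher and 42.6% lower over all genes, with a median of 0.09. Bcat2, the mitochondrial transaminase of the first step, gave 7.31 to 7.71 (median 7.52) in liver, against 8.44 to 8.76 (median 8.60) in muscle, a difference of -1.09 ± 0.08 (adjusted p = 3.1e-08). Bckdk, the kinase that switches off the branched-chain ketoacid dehydrogenase, was lower in liver (-2.39 ± 0.06). Of the subunits of that dehydrogenase, Bckdha (0.19 ± 0.07), Bckdhb (0.47 ± 0.11) and Dbt (0.72 ± 0.13) were higher in liver, and Dld, the subunit it shares with pyruvate dehydrogenase, was lower (-0.38 ± 0.14). The groups did not overlap for Bcat2 or Bckdk. Bckdha was not called in 7 of 12 fits that left out 1 array (adjusted p up to 0.0759) and Dld in 3 of 12 (adjusted p up to 0.0533).

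Genes of glucose output were higher in liver, though not all of them. Of 14 tested, 10 were higher in liver, 2 lower and 2 not called, beside 32.7% higher and 42.6% lower over all genes. G6pc, glucose-6-phosphatase, which frees glucose for export, gave 11.29 to 12.48 (median 11.65) in liver, against 6.78 to 6.92 (median 6.82) in muscle, a difference of 4.87 ± 0.15 (adjusted p = 1.27e-12), and 5 of 6 muscle arrays also detected it. Fbp1, liver fructose-1,6-bisphosphatase, differed by 5.45 ± 0.07. Pck1, cytosolic phosphoenolpyruvate carboxykinase, read only 7.19 to 8.31 in liver and was at least 2.33-fold higher there. Khk, ketohexokinase, which starts fructose use, was higher by 3.28, and Pcx, pyruvate carboxylase, by 1.57. Pgm1, phosphoglucomutase, which links glycogen with glycolysis, was lower in liver (-1.97 ± 0.07), as was Ppp1r3c, a glycogen-targeting subunit of protein phosphatase 1 (-1.70 ± 0.30). Slc37a4, the glucose-6-phosphate transporter that works with G6pc, was not called (-0.18 ± 0.10).

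Ketone bodies are made in liver during a fast and burnt elsewhere, and the measured genes of making and of burning them differed. Bdh1, which reduces acetoacetate to beta-hydroxybutyrate, gave 9.40 to 9.91 (median 9.81) in liver, against 6.88 to 7.43 (median 7.01) in muscle, a difference of 2.72 ± 0.11. Acat1, the mitochondrial acetoacetyl-CoA thiolase, differed by 0.74 ± 0.12. Oxct1, the transferase that lets cells other than hepatocytes burn acetoacetate, gave 6.77 to 6.96 (median 6.87) in liver, against 10.48 to 11.11 (median 10.82) in muscle, a difference of -3.96 ± 0.08 (adjusted p = 1.45e-14). Acss1, which activates acetate in mitochondria, was lower in liver (-2.37 ± 0.11). For Oxct1 and Acss1 every muscle array lay above every liver array.

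Fatty acids are oxidised in peroxisomes and in mitochondria, and most genes tested of both routes were higher in liver. All 19 tested peroxisomal and omega-oxidation genes were higher in liver, with a median of 2.72, and 8 of them were not detected on any muscle array. Cyp4a14, a fatty acid omega-hydroxylase, was at least 95.2-fold higher in liver, with 13.01 to 13.50 (median 13.40) in liver, against 6.59 to 6.65 (median 6.60) in muscle. Acaa1b, a peroxisomal thiolase, differed by 6.97 ± 0.05, and Ehhadh, the peroxisomal bifunctional enzyme, by 3.98 ± 0.23. Of 19 mitochondrial genes, 14 were higher in liver and 3 lower, but 4 alone passed 2-fold, and the median was 0.38. Acadm, medium-chain acyl-CoA dehydrogenase, gave 12.16 to 12.70 (median 12.62) in liver, against 11.92 to 12.43 (median 12.22) in muscle, groups that overlapped, with a difference of 0.29 ± 0.12 (adjusted p = 0.0361). With 1 array left out, Acadm was not called in 7 of 12 fits (adjusted p up to 0.0816) and Acadl in 5 of 12 (up to 0.0752). Acadvl, the very-long-chain enzyme, differed by 0.32 ± 0.10 and Acadl, the long-chain enzyme, by -0.27 ± 0.10. Acaa2, the mitochondrial thiolase, was highest on the liver side at 2.13 ± 0.13, and Mlycd, malonyl-CoA decarboxylase, was lower in liver at -0.57 ± 0.11.

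Synthesis of fatty acids and sterols also favoured liver. Of 16 fatty acid synthesis genes, 12 were higher in liver and 2 lower, beside 32.7% and 42.6% of all genes. Of the higher ones, 10 passed 2-fold. Elovl5, an elongase of polyunsaturated fatty acids, was higher by 4.92 ± 0.13, Fads1, a delta-5 desaturase, by 4.34, and Scd1, the stearoyl-CoA desaturase, by 2.87 ± 0.32. Scd1 in muscle ran from 9.32 in animal 3 to 11.37 in animal 5, in which Adipoq was lowest (8.16) and highest (9.90), and the part of adipocytes in it was not tested. Lpin1, a phosphatidate phosphatase, was lower in liver (-2.99 ± 0.10), while its relative Lpin2 was higher by 1.64, at least 2.94-fold. Me1, malic enzyme, was lower in liver (-1.47 ± 0.17). Of 16 cholesterol synthesis genes, 11 were higher in liver, against 32.7% of all genes, led by Ebp, a sterol isomerase (2.95 ± 0.13). Fdps, farnesyl diphosphate synthase, was not called (-0.49 ± 0.25), but without the liver array of animal 1 the difference was -0.72 (adjusted p = 0.00108).

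All tested bile acid and detoxification genes were higher in liver. All 17 tested bile acid genes were called higher (median 2.78), as were all 38 cytochrome P450 and conjugation genes, each by at least 2-fold (median 4.09). Of the 17, 11 were not detected on any muscle array, and of the 38, 20, so the detection filter all but fixed their direction. Cyp8b1, which makes cholic acid, gave 12.36 to 13.51 (median 13.10) in liver, against 6.62 to 6.82 (median 6.70) in muscle, a difference of 6.35 ± 0.16. Cyp7a1, the rate-limiting enzyme of bile acid synthesis, gave 7.69 to 10.89 (median 9.70) in liver, against 6.56 to 6.69 (median 6.61) in muscle, at least 6.99-fold higher, with a wide range between livers. Abcb11, the bile salt export pump, was at least 4.81-fold higher and Slc10a1, the bile salt uptake carrier, at least 1.44-fold. Cyp2d9 differed by 6.40 ± 0.05, and Cyp3a11, a main drug-metabolising P450, was at least 18.8-fold higher. Cyp2e1, which oxidises ethanol, read 13.61 to 13.69 in liver, against 7.32 to 8.995 in muscle, where all 6 arrays detected it. Near copies among the P450 genes share sequence, and which member a probe reads is uncertain for the Cyp2c, Cyp2d and Cyp4a families.

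Transcription factors known from each tissue were mostly higher in it. All 17 tested liver factors were higher in liver (median 1.66), 10 of them not detected on any muscle array. Foxa3, a forkhead factor, gave 10.54 to 11.13 (median 10.79) in liver, against 6.52 to 6.72 (median 6.68) in muscle, at least 16.4-fold higher. Hnf4a, a nuclear receptor of hepatocytes, gave 10.13 to 10.67 (median 10.54) in liver, against 6.77 to 6.90 (median 6.83) in muscle, a difference of 3.62 ± 0.08. Nr1h4, the bile acid receptor FXR, differed by 4.13, at least 16.1-fold, Nr1i3, the xenobiotic receptor CAR, by 2.43, at least 4.99-fold, and Foxa2 by 0.47 ± 0.05, at least 1.27-fold. Of 18 muscle factors, 15 were lower in liver, and 8 of the 18 were not detected on any liver array. Mef2c, a partner of the myogenic factors, gave 6.65 to 6.78 (median 6.75) in liver, against 11.84 to 12.17 (median 12.05) in muscle, a difference of -5.30 ± 0.06, and Myf6, the myogenic factor of mature fibres, was at least 12.5-fold lower in liver. Myod1, the founding myogenic factor, differed by -0.42 ± 0.05, at least 1.24-fold, and Myog was not called (-0.05 ± 0.06). Prox1, which stood in both lists because it acts in hepatocytes and in slow fibres, was higher in liver (1.93 ± 0.11, at least 3.51-fold) and was not detected on any muscle array.

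**Figure D2:**
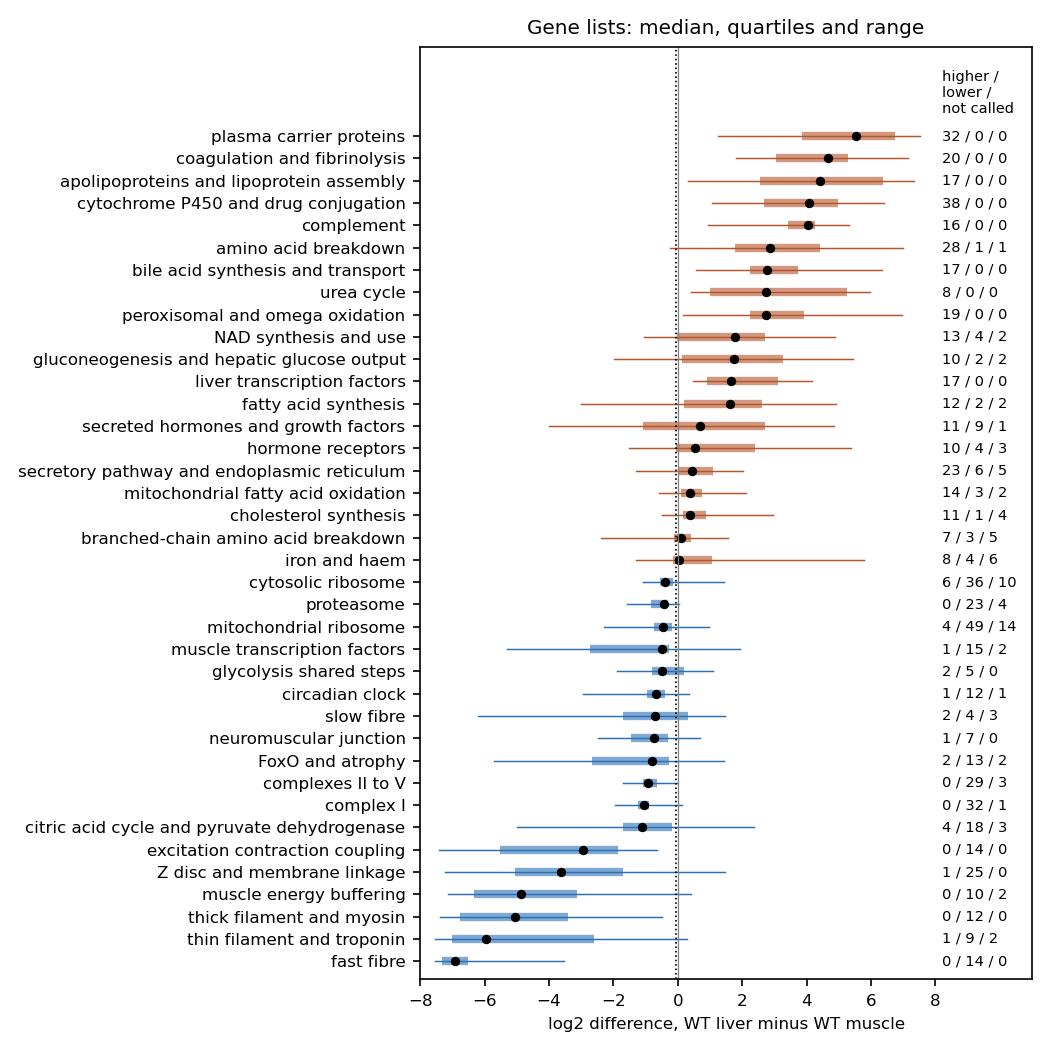
For each gene list with at least 5 tested members, the median (dot), quartiles (thick bar) and range (thin line) of the log2 difference, WT liver minus WT muscle. Columns at the right count members called higher in liver, called lower and not called. Plasma carriers have the highest median, 5.52, and fast fibre genes the lowest, -6.93, and the dotted line marks the median of all genes, -0.06.

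The contractile apparatus was lower in liver nearly throughout. All 12 tested thick filament genes were lower in liver (median -5.07), 9 of them not detected on any liver array. Myh4, the heavy chain of the fastest mouse fibres, gave 6.58 to 6.66 (median 6.62) in liver, against 12.52 to 13.28 (median 13.13) in muscle, at least 76.9-fold lower in liver. Ttn, the giant spring protein titin, differed by -6.92, at least 115-fold and Mybpc2, the fast myosin-binding protein C, by -6.70, at least 96.2-fold. Of 12 thin filament genes, 9 were lower in liver, and 7 of the 12 were not detected on any liver array. Tnnt3, fast troponin T, was at least 110-fold lower. Tpm1, a tropomyosin with forms in many cell types, was slightly higher in liver (0.29 ± 0.06).

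Z-disc and membrane linkage genes were lower in liver in 25 of 26 cases (median -3.63), and 14 of the 26 were not detected on any liver array. Des, desmin, which ties myofibrils together, gave 6.82 to 7.07 (median 6.97) in liver, against 12.08 to 12.63 (median 12.47) in muscle, a difference of -5.47 ± 0.09. Tcap, which anchors titin, differed by -6.86, at least 108-fold and Sgca, a sarcoglycan of the dystrophin complex, by -4.13, at least 16.4-fold. The probe of Dmd, dystrophin itself, was not detected in either tissue. Csrp3, the muscle LIM protein, was the exception: it read 9.45 to 10.18 (median 9.95) in liver, against 7.19 to 10.65 (median 8.04) in muscle, so that liver was higher by 1.48 ± 0.48 (adjusted p = 0.0124) and the groups overlapped. In the 3 animals of the higher number series alone the difference was 0.54 and not called (adjusted p = 0.336). The 2 further Csrp3 probes differed by 0.49 and 0.32 in the same direction, neither at an unadjusted p under 0.05.

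All 14 tested genes of excitation-contraction coupling were lower in liver, and 13 of them were not detected on any liver array. For those 13 the detection filter all but fixed the direction. Ryr1, the calcium release channel, gave 6.56 to 6.70 (median 6.64) in liver, against 12.84 to 13.20 (median 13.07) in muscle, at least 78.6-fold lower. Atp2a1 was at least 116-fold lower, Casq1, calsequestrin, which binds calcium in the store, at least 10.7-fold, and Hrc, a second luminal calcium-binding protein, differed by -5.64, at least 46.9-fold. Clcn1, the chloride channel that steadies the fibre membrane, was dim in muscle at 7.16 to 7.31 and at least 1.41-fold lower in liver. A further probe of Clcn1 differed by -0.09 (unadjusted p = 0.126, limma). At the neuromuscular junction, 7 of 8 genes were lower in liver, with smaller differences, and 4 of the 8 were not detected on any liver array. Chrnb1, a subunit of the acetylcholine receptor, differed by -2.47 ± 0.09, Chrna1, another, by -1.30 ± 0.07, at least 2.23-fold, and Musk, the receptor kinase that clusters them, by -0.35 ± 0.06, at least 1.18-fold. Lrp4, the co-receptor of Musk, was higher in liver (0.68 ± 0.09).

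All 14 fast fibre genes were lower in liver by at least 2-fold, with a median of -6.93. Of these, 12 were not detected on any liver array, so the detection filter all but fixed their direction. Of 9 tested slow fibre genes, 4 were lower in liver, 2 higher and 3 not called, so the share lower was near the 42.6% of all genes. Mb, myoglobin, the oxygen store, gave 6.65 to 6.79 (median 6.70) in liver, against 12.47 to 13.31 (median 12.91) in muscle, a difference of -6.19 ± 0.12. Myl2, the slow regulatory light chain, read 6.85 to 10.60 in muscle and was at least 2.33-fold lower in liver. That rests in part on the muscle array of animal 4, without which the log2 difference of -1.41 was -0.88 (adjusted p = 0.00123, limma). Tnnt1, slow troponin T, was not called (-0.72 ± 0.33), with 6.70 to 6.97 (median 6.87) in liver, against 6.94 to 9.36 (median 7.18) in muscle, although 3 of 12 fits that left out 1 array called it, among them that without muscle of animal 4 at -0.36 (adjusted p = 0.0227), and it was called with the animal as a block (adjusted p = 0.0497). The probes of Myh7, the slow heavy chain, and Tnni1, slow troponin I, were at or near background on all 12 arrays.

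Energy buffering genes of the fibre, those that keep ATP constant, were lower in liver in 10 of 12 cases, and 4 of the 12 were not detected on any liver array. Ckm was at least 125-fold lower. Ckmt2, the mitochondrial creatine kinase, differed by -6.15, Ak1, adenylate kinase, by -5.12, at least 32.3-fold, and Slc6a8, the creatine transporter, by -2.70. Ckb, the creatine kinase of brain and other tissues, was not called (0.41 ± 0.18), and was called higher in 4 of 12 fits that left out 1 array (adjusted p 0.0239 to 0.111 over the 12) and with the animal as a block (adjusted p = 0.0285).

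Muscle wasting in a fast runs through ubiquitin ligases and autophagy genes that FoxO factors switch on. Of 17 tested FoxO and atrophy genes, 13 were lower in liver, against 42.6% of all genes. Fbxo32, the ubiquitin ligase atrogin-1, gave 6.69 to 7.02 (median 6.85) in liver, against 11.76 to 12.31 (median 12.07) in muscle, a difference of -5.19 ± 0.09. Trim63, the ligase MuRF1, gave 6.58 to 6.69 (median 6.61) in liver, against 10.04 to 11.71 (median 10.75) in muscle, at least 16.2-fold lower in liver. Asb2, part of another ubiquitin ligase, differed by -5.72 ± 0.13. Gabarapl1, an autophagosome protein, was higher in liver (1.45 ± 0.17), whereas Map1lc3a, of the same family, was lower (-1.32 ± 0.12).

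Paralog pairs, a form known from liver and one known from muscle, were compared by the direction of each member's difference. Of 37 pairs, 19 had both members tested, and 16 of these were divided: the form known from liver was called higher in liver and the form known from muscle lower. All 28 tested muscle forms were lower in liver, with a median of -5.30, while 21 of 24 tested liver forms were higher, with a median of 1.15. Over all genes tested, 42.6% were called lower in liver and 32.7% higher, and the pairs were chosen for their known tissue forms. A divided pair has opposite differences, which do not show which member serves a tissue. In liver Adssl1, the muscle form of a divided pair, read 9.07 and Adss 7.30, from different probes. With only probes detected on all 12 arrays kept, 3 pairs were divided, since a form silent in one tissue is then not tested.

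Along glucose use the divided pairs began at entry. Slc2a2, the glucose transporter GLUT2, was at least 6.82-fold higher in liver (9.27 to 10.01 in liver, 6.58 to 6.64 in muscle), and Slc2a4, the insulin-responsive GLUT4, at least 5.92-fold lower (6.63 to 6.80 in liver, 9.12 to 9.68 in muscle). Phosphofructokinase divided into Pfkl, higher by 1.30 ± 0.07, and Pfkm, lower (-5.62 ± 0.08). A second probe of Pfkl differed by -0.02 and was dim. Fructose bisphosphatase divided into Fbp1 and Fbp2 (-3.70 ± 0.09), and phosphoglycerate mutase into Pgam1 (1.08 ± 0.05) and Pgam2, at least 81.1-fold lower in liver. Hk2 (-4.63 ± 0.09), Aldoa (-5.09 ± 0.13), Eno3 (-6.81 ± 0.06) and Pkm (-5.59 ± 0.15), the muscle hexokinase, aldolase, enolase and pyruvate kinase, were lower in liver, with no tested partner.

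Glycogen enzymes divided at every step that was measured on both sides. Pygl, liver phosphorylase, gave 10.95 to 11.73 (median 11.46) in liver, against 7.10 to 7.56 (median 7.22) in muscle, a difference of 4.08 ± 0.12, and Pygm, muscle phosphorylase, gave 6.56 to 6.72 (median 6.63) in liver, against 12.02 to 12.23 (median 12.17) in muscle, at least 42.2-fold lower in liver. Glycogen synthase divided more narrowly, with Gys2 at 1.22 ± 0.10, at least 2.04-fold and Gys1 at -0.73 ± 0.08. Of the phosphorylase kinase subunits, Phka2 (0.48 ± 0.07) and Phkg2 (0.53 ± 0.07) were slightly higher in liver, against Phka1 (-2.86 ± 0.12) and Phkg1 (-4.81 ± 0.08, at least 25.9-fold), which were lower. Further probes of Phka1 differed by -0.88 and -0.87, and further probes of Phka2 by 0.17 and 0.21.

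Pairs of the respiratory chain, purine cycle and ribosome were as divided. Cox6a1 gave 11.78 to 11.96 (median 11.87) in liver, against 8.71 to 9.20 (median 9.02) in muscle, and Cox6a2 gave 6.62 to 6.87 (median 6.68) in liver, against 13.67 to 13.70 (median 13.69) in muscle, differences of 2.88 ± 0.08 and -6.99 ± 0.05. Cox8a and Cox8b, subunits of the same oxidase, differed by 2.05 ± 0.13 and -6.66 ± 0.06. Cox7a1 was lower in liver (-5.60 ± 0.08), but Cox7a2 was not called (0.19 ± 0.18). Ampd1, the AMP deaminase of fibres, differed by -6.70 ± 0.05 and Ampd2 by 0.28 ± 0.05, at least 1.09-fold, and Adssl1, the muscle adenylosuccinate synthase, by -4.63 ± 0.07 and Adss by 0.49 ± 0.12. Rpl3, a protein of the large ribosomal subunit, was higher in liver (1.43 ± 0.15), and Rpl3l, its muscle paralog, at least 108-fold lower. Eef1a2, the elongation factor of muscle and neurons, was at least 95.3-fold lower in liver.

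Fuel uptake and receptors gave further divided pairs. Slc27a2, a fatty acid transport protein, was at least 45.5-fold higher in liver and Slc27a1 lower (-0.89 ± 0.08). Fabp3, the fatty acid-binding protein of muscle, was at least 48.8-fold lower in liver, and Cpt1b, the muscle carnitine palmitoyltransferase, lower (-3.59 ± 0.13), each with a liver partner, Fabp1 and Cpt1a, whose probe was at background in both tissues. Lpl, lipoprotein lipase, gave 8.38 to 9.15 (median 8.67) in liver, against 11.82 to 12.62 (median 12.14) in muscle, a difference of -3.48 ± 0.15. Adipor2 was higher in liver (0.99 ± 0.14) and Adipor1 lower (-1.75 ± 0.08), both receptors of adiponectin. Rxra (0.39 ± 0.07) and Rxrg (-1.54 ± 0.13), nuclear receptor partners, divided as well.

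Of the 3 pairs that were not divided, Atp2a2, the calcium pump of slow fibres and other cells, was not called (0.33 ± 0.18; 0.49 with an adjusted p of 0.0022 without the muscle array of animal 4), but with the animal as a block it was called higher in liver (adjusted p = 0.0301), which divides that pair. Cox7a2 was not called, and Actb, cytoplasmic actin, was lower in liver (-2.44 ± 0.08) although it had been listed as the form of liver. The 5 Actb probes did not agree, with the other 4 between -0.41 and 0.94.

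**Figure D3:**
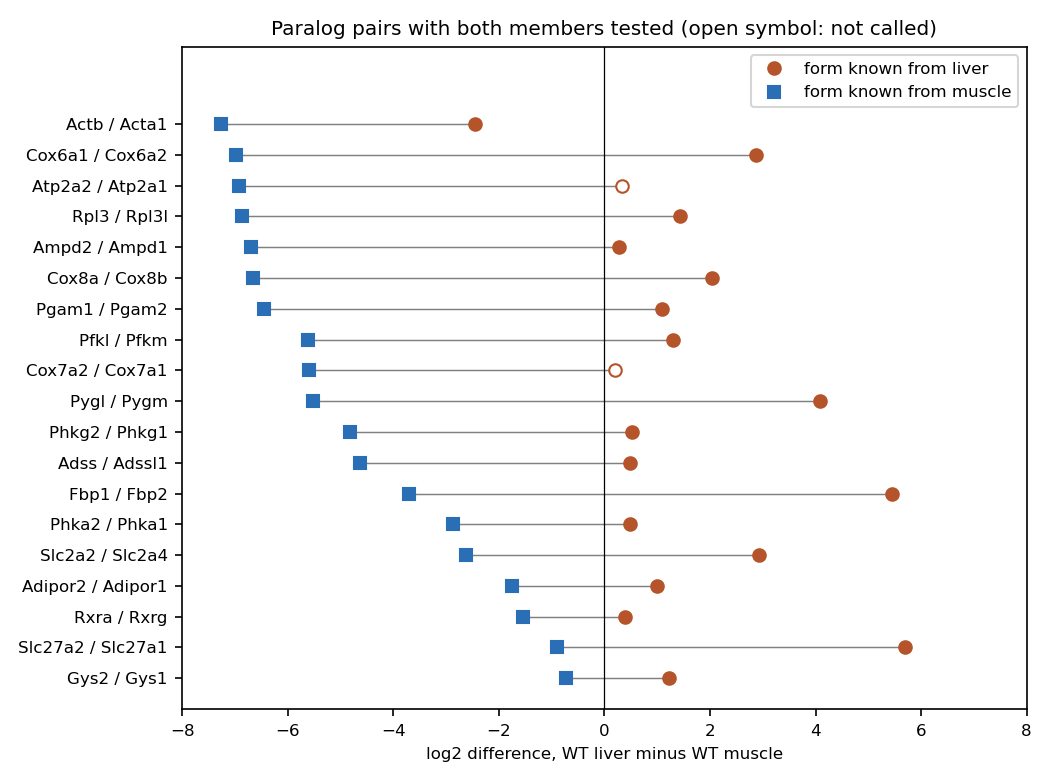
Log2 difference, WT liver minus WT muscle, of both members of the 19 paralog pairs that could be tested, with circles for the form known from liver and squares for the form known from muscle. In 16 pairs a filled circle lies right of 0 and a filled square left of it, and the squares lie farther from 0 in most.

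Genes of the respiratory complexes were mostly lower in liver. Of 33 tested complex I genes, 32 were lower in liver, against 42.6% of all genes, with a median of -1.06. Ndufv1, the subunit that accepts electrons from NADH, gave 11.08 to 11.30 (median 11.17) in liver, against 12.18 to 12.53 (median 12.34) in muscle, with no overlap and a difference of -1.16 ± 0.06. Ndufa12 differed most (-1.95 ± 0.09). Of 32 genes of complexes II to V, 29 were lower in liver, with a median of -0.92. Uqcrc1, a core subunit of complex III, differed by -1.50 ± 0.08 and Atp5g1, which encodes the c subunit of ATP synthase, by -1.69 ± 0.10.

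The citric acid cycle and its entry step were lower in liver in 18 of 25 genes (median -1.11), against 42.6% of all genes. Differences between steps were wide. Cs, citrate synthase, gave 8.39 to 8.79 (median 8.67) in liver, against 11.05 to 11.51 (median 11.32) in muscle, a difference of -2.67 ± 0.08. Idh3a and Idh3g, the alpha and gamma subunits of NAD-linked isocitrate dehydrogenase, differed by -3.67 ± 0.10 and -2.16 ± 0.05, whereas Idh3b, the beta subunit of the same enzyme, was higher in liver, with 10.30 to 10.61 (median 10.52) in liver, against 7.89 to 8.36 (median 8.13) in muscle and a difference of 2.37 ± 0.08. Sucla2, the ATP-forming succinyl-CoA ligase subunit, was lower in liver (-0.18 ± 0.04, at least 1.09-fold) and Suclg2, the GTP-forming one, higher (1.23 ± 0.12). Mdh2, mitochondrial malate dehydrogenase, differed by -2.92 ± 0.11. The pyruvate dehydrogenase subunits Pdha1, Pdhb and Dlat were lower in liver, with differences of -2.13, -1.71 and -1.61. Pdk4, the kinase that shuts pyruvate dehydrogenase during a fast, gave 7.38 to 8.63 (median 7.91) in liver, against 12.74 to 13.04 (median 12.94) in muscle, a difference of -5.001 ± 0.17, and Pdk2 was lower in liver (-1.49 ± 0.06) while Pdk1 was higher (0.64 ± 0.11).

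Machinery for making and breaking proteins also leaned to muscle, by less. The mitochondrial ribosome had 49 of 67 genes lower in liver and 4 higher (median -0.45). The cytosolic ribosome had 36 of 52 lower and 6 higher (median -0.39). Over all genes 42.6% were lower and 32.7% higher. Rplp0 differed by -0.77 ± 0.05 and Rpl24 by -1.08 ± 0.07, while Rpl3 was the farthest on the liver side. The proteasome had 23 of 27 genes lower in liver and 0 higher (median -0.43). Psmb7, a catalytic beta subunit, differed by -1.56 ± 0.12, and Psma7 was not called (0.02 ± 0.07).

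Genes of the secretory pathway took the opposite side. Of 34 tested, 23 were higher in liver and 6 lower (median 0.44), beside 32.7% and 42.6% of all genes. Tram1, a protein of the translocon through which secreted proteins enter the endoplasmic reticulum, gave 9.52 to 10.29 (median 10.23) in liver, against 7.73 to 8.37 (median 8.10) in muscle, a difference of 2.03 ± 0.13. P4hb and Pdia3, disulfide isomerases, differed by 1.95 and 1.83, and Mcfd2 and Lman1, the cargo receptor that carries clotting factors out of the endoplasmic reticulum, by 1.88 and 1.08. Sar1b, a GTPase of transport vesicles, was lower in liver (-1.31 ± 0.07). Hspa5, the chaperone BiP, had a dim probe and was not called (0.12 ± 0.05), and was called in 2 of 12 fits that left out 1 array (adjusted p 0.0188 to 0.13 over the 12) and with the animal as a block (adjusted p = 0.0446).

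**Figure D4:**
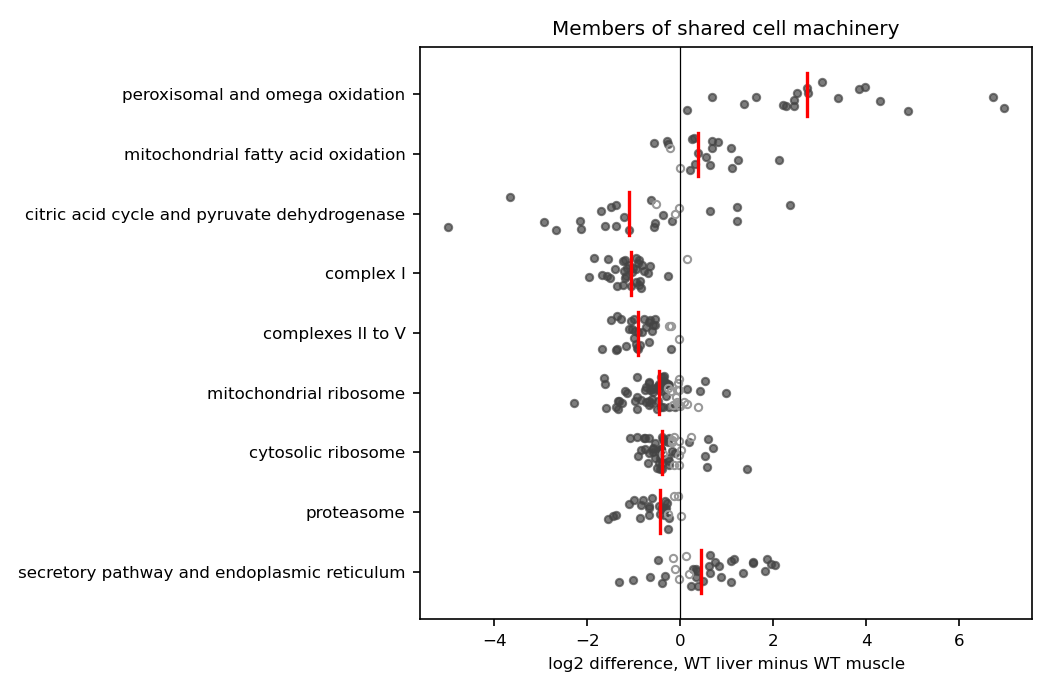
Log2 difference, WT liver minus WT muscle, of each tested member of 9 lists of shared cell machinery, with filled points for called genes, open points for genes not called and a red line at the median. Peroxisomal genes lie right of 0, complex I genes lie between -1.95 and 0.14, and the citric acid cycle spreads from -5.001 to 2.37.

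NAD metabolism, which feeds the sirtuins, favoured liver in its synthesis from tryptophan. Of 19 tested genes, 13 were higher in liver and 4 lower, beside 32.7% and 42.6% of all genes. Haao, Kynu and Qprt, which lead from kynurenine to NAD, differed by 4.87 ± 0.06, at least 26.9-fold, 3.80 ± 0.13, at least 12.4-fold and 2.86 ± 0.07, at least 6.5-fold, and Naprt, which uses nicotinic acid, by 3.28. Nampt, which recycles nicotinamide and dominates in many tissues, was slightly lower in liver (-0.34 ± 0.13), with 6.87 to 7.46 (median 7.30) in liver, against 7.27 to 7.88 (median 7.56) in muscle, a call lost in 5 of 12 fits that left out 1 array (adjusted p up to 0.0611). Nnmt, which methylates nicotinamide, was higher (4.02 ± 0.19). Among the sirtuins, Sirt3 (2.02 ± 0.07) and Sirt7 (1.86 ± 0.09) were higher in liver and Sirt2 lower (-0.89 ± 0.10), while Sirt1 (-0.09 ± 0.05) and Sirt5 (0.03 ± 0.08) were not called. Parp1, another consumer of NAD, was lower in liver (-1.04 ± 0.08).

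At the single hour of sampling, 12 of 14 clock genes were lower in liver and 1 higher, beside 42.6% and 32.7% of all genes. Usp2, a ubiquitin protease with a daily rhythm, gave 7.02 to 7.40 (median 7.04) in liver, against 9.70 to 10.63 (median 10.02) in muscle, a difference of -2.95 ± 0.13. Dbp, an output factor of the clock, gave 7.69 to 9.98 (median 9.01) in liver, against 8.93 to 10.51 (median 9.95) in muscle, groups that overlapped widely, with a difference of -0.95 ± 0.37 (adjusted p = 0.0323), a call lost in 6 of 12 fits that left out 1 array (adjusted p up to 0.0734). Per2 differed by -0.39 ± 0.13, Tef by -1.60 ± 0.14 and Nr1d1, the repressor REV-ERB alpha, by -1.18 ± 0.17. Clock itself was higher in liver (0.36 ± 0.13). A further probe of Per2 differed by -0.02 and a further probe of Clock by 0.09, neither at an unadjusted p under 0.05 (limma). Further probes of Tef and Nr1d1 differed by -1.06 and -0.98.

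Receptors and secreted factors divided by gene. Asgr1, the asialoglycoprotein receptor of hepatocytes, was at least 38.6-fold higher in liver, and Gcgr, the glucagon receptor, differed by 2.94 ± 0.11. Acvr2b, a receptor of myostatin and activin, was lower in liver (-1.52 ± 0.09), and Ghr, the growth hormone receptor, was not called (0.23 ± 0.13), with 10.18 to 10.94 (median 10.84) in liver, against 10.19 to 10.67 (median 10.48) in muscle, but without the liver array of animal 3 the difference was 0.33 (adjusted p = 0.0159). Igf1 gave 11.29 to 11.75 (median 11.44) in liver, against 7.01 to 7.96 (median 7.18) in muscle, a difference of 4.17 ± 0.14, while Igfbp5, a binding protein of it, was lower in liver (-4.004 ± 0.19). Fgf21, a fasting hormone of liver, read 8.54 to 9.84 in liver and 6.66 to 6.83 in muscle, where 1 array of 6 detected it, a difference of 2.56 ± 0.17. Vegfb, a vascular growth factor, was lower in liver (-2.81 ± 0.11), as was Fndc5, the precursor of irisin (-1.75 ± 0.06, at least 3.27-fold). Hamp, hepcidin, which controls iron export, was at least 49.1-fold higher in liver, and Tfr2, its upstream sensor, at least 11.7-fold, whereas Tfrc, the uptake receptor for transferrin, was lower in liver (-1.29 ± 0.22). Of 18 iron and haem genes, 8 were higher in liver and 4 lower, beside 32.7% and 42.6% of all genes.

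The spread between animals was small beside these differences. Among genes detected on all 6 arrays of a tissue, the median SD was 0.147 in liver (7104 genes) and 0.124 in muscle (6983 genes), and an SD of at least 0.5 was reached by 142 genes in liver and 47 in muscle. The genes with the highest SD are given here as a description of 6 animals, grouped after their values were seen.

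Saa1, serum amyloid A, an acute phase protein, had the highest SD in liver. It read 10.66 in animal 3, 9.08 in 1, 8.44 in 2, 7.997 in 4, 7.47 in 5 and 7.14 in 6. Orm2, an orosomucoid, was also highest in animal 3, at 12.35, and lowest in animal 6, at 9.47. Antigen presentation and interferon-induced genes followed another order of animals. Cd74, the invariant chain of class II molecules, read 10.92, 10.81 and 10.19 in animals 5, 2 and 4, and 8.37 to 10.92 over all 6, and H2-Ab1, a class II chain, and Cxcl9, a chemokine induced by interferon gamma, were highest in the same 3 animals. Between the tissues neither Cd74 (0.31 ± 0.40) nor H2-Ab1 (0.47 ± 0.41) was called. Fcgr4, an Fc receptor of myeloid cells, was highest in animal 2 at 11.36. The mean of 6 lymphocyte markers ran from 6.70 to 7.05 on the liver arrays and from 6.67 to 6.76 on the muscle arrays, and their part in this spread was not tested.

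Metabolic genes varied in liver as well. Rgs16, a regulator of G protein signalling that responds to fasting, read 10.27 and 9.49 in animals 1 and 2 and no more than 7.70 in the other 4. Cyp7a1 ran from 7.69 in animal 4 to 10.89 in animal 3. Hamp2, a second hepcidin, was lowest in animal 3 (7.86) and highest in animal 1 (10.93). Car3, a carbonic anhydrase, was among the 10 most variable genes of both tissues, from 8.99 to 12.15 in liver and 8.28 to 10.24 in muscle, and was lowest in animal 3 in each. It was not called between the tissues (1.04 ± 0.48), but was with the animal as a block (adjusted p = 0.0074).

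Slow fibre and stretch genes were 4 of the 10 most variable genes in muscle. Myl2 read 10.60 in animal 4, 8.12 in 5, 7.85 in 6, 7.48 in 3, 6.94 in 2 and 6.85 in 1. Csrp3 (10.65), Ankrd2, a stretch-responsive protein of slow fibres (10.96), and Tnnt1 (9.36) were highest in the same animal 4, and in each the 3 animals of the higher number series read above the 3 of the lower. Mb ran from 12.47 in animal 1 to 13.31 in animal 4. Myh4, of fast fibres, spanned a like range, 12.52 to 13.28. The sources used here do not say what the 2 number series stand for, and the part of them, of the muscle sampled and of fibre content in this spread was not tested.

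Several of the variable muscle genes were at an extreme in animal 3. Its muscle array detected 10024 probes, against 10896 to 11521 on the other 5 WT muscle arrays, and had the lowest mean signal of the 6. The part of this in the values that follow was not tested. Depp1, a FoxO target that responds to fasting, read 12.18 there and 10.90 in animal 5, against 8.94 to 9.61 in the other 4. Nfil3, a repressor of clock output (11.35), Tnfrsf12a, the TWEAK receptor (9.90), and Trim63 (11.71) were highest in the same animal, and Ky, a protein that maintains fibres, was lowest in it (10.08). Animal 3 was the extreme in Saa1 and Orm2 in liver and in Depp1, Nfil3, Tnfrsf12a, Trim63 and Ky in muscle.

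**Figure D5:**
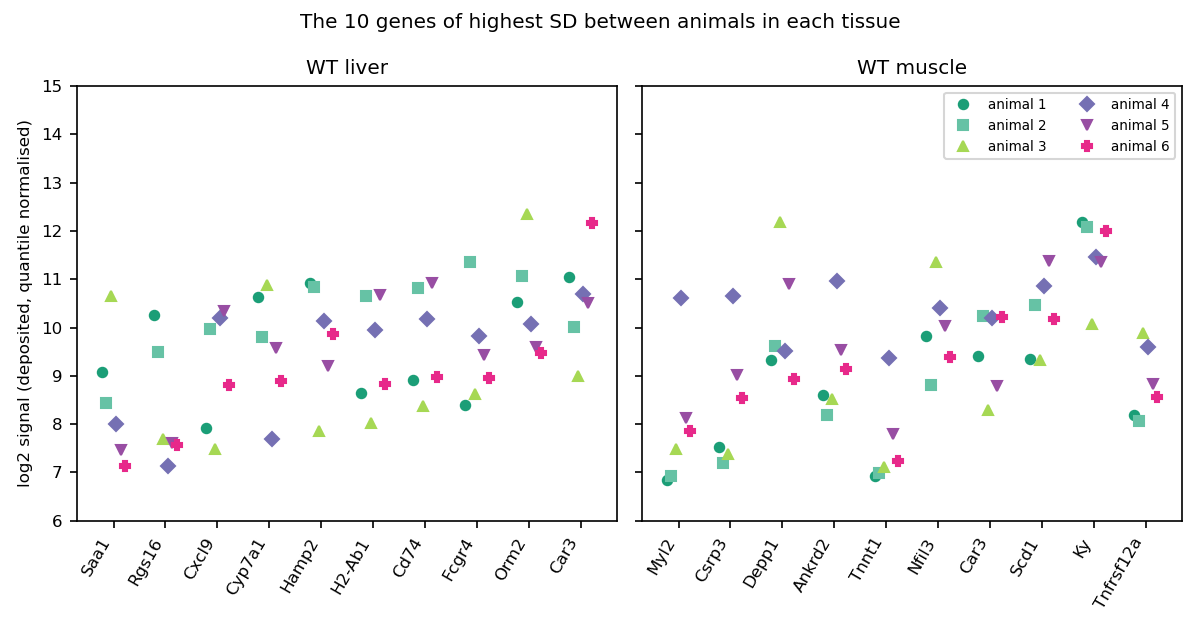
Log2 signal in each of the 6 WT animals for the 10 genes of highest SD in liver (left) and in muscle (right), among genes detected on all 6 arrays of that tissue. Animal 4 is highest for Myl2, Csrp3, Ankrd2 and Tnnt1 in muscle, and animal 3 for Saa1 and Orm2 in liver and for Depp1 and Nfil3 in muscle.

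Whether the difference between the tissues held under the interventions was asked over 48 arrays, with a term for the number series in each tissue. Of 2197 genes that passed the 2-fold rule in WT and were measured by the same probe, 2196 had the same direction in SIRT1Tg mice, 2197 in CR mice and 2195 in EX mice. A difference of at least 2-fold in that direction was kept by 2027 in SIRT1Tg mice, 1983 in CR mice and 1956 in EX mice. The genes were picked for passing 2-fold on the WT arrays, so some near that threshold can fall under it in another group by spread alone. The part of the interventions in these losses was not tested. A change given below is the fitted one with the term for the number series, so it need not equal the gap between the 2 raw differences. The 3 comparisons share the WT arrays. All EX animals belonged to the lower number series and all CR animals to the higher, so their values rest on the series terms fitted over WT and SIRT1Tg mice.

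Sirt1 itself, the gene of the transgene, averaged 7.88 ± 0.56 in SIRT1Tg liver and 7.33 ± 0.09 in WT liver, and 8.55 ± 0.17 in SIRT1Tg muscle and 7.41 ± 0.06 in WT muscle (SD, n = 6 each). In SIRT1Tg mice against WT mice, the liver-muscle difference changed for 3 of 11274 genes (0.0266%), all of them falls with all arrays included. Orm2 was 2.29 higher in liver than in muscle in SIRT1Tg mice, against 3.84 in WT mice, a change of -1.56 ± 0.30 (adjusted p = 0.0258). The raw Orm2 difference was also smaller than in WT mice in CR mice (2.71) and EX mice (2.60). Among WT livers Orm2 was highest in animal 3, and the part of that animal in the change was not tested. F11, coagulation factor XI, had a difference of 2.27 in SIRT1Tg mice and 3.13 in WT mice, a change of -0.86 ± 0.16 (adjusted p = 0.0258). The other was a probe with no gene in the tables used here. Nudt7, a peroxisomal coenzyme A hydrolase (-0.79 ± 0.17, adjusted p = 0.0733), and Ces3b, a carboxylesterase (-0.49 ± 0.11, adjusted p = 0.0733), had the next smallest p and were not called. Without the SIRT1Tg liver array that detected fewest probes, 5654, 7 genes were called, 2 rises and 5 falls, and without the number series terms 1.

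In CR mice against WT mice, 16 genes changed (0.142%), 6 of them rises and 10 falls. The count was 29 without that SIRT1Tg array, 14 rises and 15 falls, and 43 without the number series terms, 27 rises and 16 falls, so the balance of directions depended on these settings. Fgf21 was 7.80 ± 0.43 in CR liver, against 9.26 ± 0.47 in WT liver (SD, n = 6 each), and its liver-muscle difference fell by 1.56 (adjusted p = 0.00251), while muscle read 6.68 ± 0.04 in CR mice and 6.70 ± 0.06 in WT mice. Lamb3, a laminin chain (-1.20 ± 0.20), Cyp8b1 (-1.01 ± 0.23), Elovl3, an elongase of long-chain fatty acids (-1.01 ± 0.21), and Plin4, a lipid droplet protein (-1.13 ± 0.25), fell too. Plin4 was lower in liver than in muscle in both groups, so its raw difference widened, from -3.29 in WT mice to -4.03 in CR mice. Slc39a4, a zinc importer, was 9.57 ± 0.41 in CR liver and 8.37 ± 0.22 in WT liver, and its difference rose (1.41 ± 0.26, adjusted p = 0.00773). The differences of Cyp2b23, a P450 (1.18 ± 0.20), Abcg5, which exports sterols into bile (0.77 ± 0.17), Zdhhc14, a palmitoyltransferase (0.44 ± 0.10), and Ccn5, a matricellular protein (0.42 ± 0.10), rose as well. Zdhhc14 and Ccn5 were lower in liver than in muscle in WT mice and moved mostly in muscle. Zdhhc14 read 7.21 in CR and 7.47 in WT muscle, against 7.12 and 7.05 in liver. Ccn5 read 6.84 in CR and 7.17 in WT muscle, against 6.69 and 6.66 in liver, near background.

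In EX mice against WT mice, 53 genes changed (0.47%), 22 of them rises and 31 falls. The count was 33 with normexp background correction and 147 without the number series terms. The largest falls were slow fibre genes. Myl3, a slow myosin light chain, was 12.36 ± 0.38 in EX muscle, against 7.96 ± 1.85 in WT muscle, and near background in both livers, and its liver-muscle difference changed by -4.96 ± 1.04 (adjusted p = 0.0167). Myl2 (-3.98 ± 0.90), Tnnt1 (-3.33 ± 0.78) and Tnnc1, slow troponin C (-3.30 ± 0.80), fell likewise. The raw Myl3 difference was -2.89 in SIRT1Tg, -3.77 in CR and -5.70 in EX mice, against -1.30 in WT mice. In the same order Myl2 gave -2.95, -3.45, -5.15 and -1.41, Tnnt1 -1.26, -2.32, -3.78 and -0.72, and Tnnc1 -1.05, -2.27, -3.54 and -0.51. All were thus smallest in size in WT mice, but none of these genes was called in SIRT1Tg or CR mice. Myl2 and Tnnt1 were among the 10 most variable genes between WT muscles, and the SD of Myl3 was larger in WT muscle than in EX muscle. On the liver side Saa1 was 7.11 ± 0.14 in EX mice and 8.46 ± 1.28 in WT mice, and its difference fell (-1.87 ± 0.37). The raw Saa1 difference was 0.52 in SIRT1Tg, 0.54 in CR and 0.39 in EX mice, against 1.76 in WT mice. Among WT livers Saa1 was highest in animal 3, and the part of that animal in the change was not tested. Among the rises, Morf4l2, a chromatin protein (1.07 ± 0.18), Gdap1, a mitochondrial protein (0.86 ± 0.19), Rab2a, a vesicle GTPase (0.82 ± 0.19), and Gpx3, a secreted glutathione peroxidase (0.72 ± 0.18), were the largest with a name, and in WT mice each of them was lower in liver than in muscle. For Gpx3 muscle read 11.07 ± 0.19 in EX mice and 11.78 ± 0.19 in WT mice.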

How the data were processed

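RNA of liver and muscle was hybridised to Illumina mouse bead arrays, 1 colour each. The deposited values were log2 intensities that the authors had quantile normalised, with GenomeStudio and Partek named per the submitters' processing notes and no version given; the deposited intensity tables gave the same ranks on every array (lowest rank correlation 1.0), and the columns of the log2 table shared a median of 6.718. Background had not been corrected. Probes were named through the platform's gene IDs (23962) or symbols (16), and 1719 had no gene. No column of per-sample values was left unused (0).

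A probe counted as detected above the upper 0.05 tail of its array's background, which was modelled from the mode of the intensities. Probes detected on at least 6 of the 12 arrays (11878) were kept and each gene was read from 1 probe, giving 9059 genes. Differences were fitted with limma 3.58.1 (lmFit and eBayes, R 4.3.3) without the animal as a block, and adjusted by Benjamini-Hochberg over all genes. Where called genes had further probes, 2154 of 2288 agreed in direction. The liver-muscle difference of each intervention against WT was an interaction term over 48 arrays (11274 genes), with number series terms. Summaries used Python 3.11.15. Lower-bound folds set the brighter tissue's mean against the lowest detected signal of the other's arrays, or the probe's own signal where higher.

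Liver and muscle of a number came from the same animal. The deviations of the 6 same-numbered pairs from their group means correlated at -0.267 to 0.268. Of the slides of these arrays 4 held both tissues, and the 12 arrays limit the precision. P-values set a difference against the residual spread between arrays of a tissue, in which animal, array, slide and number series are mixed. The number series (animals numbered lower or higher) has no stated meaning in the sources used here.

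The comparison, the gene lists and the pairs were chosen with earlier results of these data known. The text names the 12 largest differences each way, key and extreme members of each list, all pairs, markers, up to 5 interaction changes each way and the 10 most variable genes of each tissue. Further members were chosen after their values were seen. Alternatives were other background corrections and scalings, detection filters, the animal as a block, number series, slides, array weights and arrays left out.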

Additional observations from a re-analysis of the deposited data

Results flagged for a closer look

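In 28 of 399 groups of 6 arrays in which a named gene was detected on all 6, one animal stood apart by Dixon's test at the 95% level, and chance alone marks about 1 in 20 groups. Of the 28, 8 fell on the liver of animal 2 and 7 on the muscle of animal 3. These 2 arrays, on the same slide, detected the fewest probes and had the lowest mean signal of the WT arrays of their tissue, 9993 probes in liver against 11498 to 12472 on the others and 10024 in muscle against 10896 to 11521. The part of this in the values was not tested. The liver of animal 1 stood apart in Bdh1 (9.40, others 9.75 to 9.91). The liver of animal 2 stood apart in Adipor2 (10.66, others 11.31 to 11.54), Asb2 (7.88, others 6.95 to 7.29), Elovl5 (12.41, others 12.93 to 13.20), F11 (9.22, others 9.70 to 9.88), F5 (7.99, others 8.44 to 8.68), Gldc (10.55, others 11.15 to 11.39), Gnmt (13.61, others 12.89 to 13.13) and Tram1 (9.52, others 10.15 to 10.29). The liver of animal 3 stood apart in Cpt1b (7.99, others 7.24 to 7.39), Fbp2 (7.05, others 6.77 to 6.87) and Scd1 (12.39, others 13.12 to 13.40). The liver of animal 6 stood apart in Cyp4a14 (13.01, others 13.37 to 13.50) and Pck1 (7.19, others 7.91 to 8.31). The muscle of animal 1 stood apart in Hba-a1 (12.05, others 13.16 to 13.76). The muscle of animal 2 stood apart in Actb (12.81, others 13.01 to 13.12). The muscle of animal 3 stood apart in Cox7a2 (8.49, others 7.69 to 7.96), Hrc (11.88, others 12.27 to 12.49), Myf6 (10.86, others 10.23 to 10.45), Pdha1 (11.41, others 11.93 to 12.06), Rplp0 (7.95, others 7.77 to 7.81), Slc6a8 (9.39, others 10.29 to 10.51) and Ttn (13.32, others 13.61 to 13.70). The muscle of animal 4 stood apart in Bdh1 (7.43, others 6.88 to 7.08), Myl2 (10.60, others 6.85 to 8.12) and Tnnt1 (9.36, others 6.94 to 7.79). The muscle of animal 5 stood apart in Mylpf (14.11, others 14.005 to 14.04) and Phka2 (7.48, others 7.20 to 7.30).

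The liver-muscle difference itself changed with an intervention, by the interaction test, in the following named genes. In SIRT1Tg mice against WT mice the changes were those of F11 (-0.86) and Orm2 (-1.56), on the log2 scale. In CR mice against WT mice the changes were those of Fgf21 (-1.56), Lamb3 (-1.20), Plin4 (-1.13), Cyp8b1 (-1.01), Elovl3 (-1.01), Ccn5 (0.42), Zdhhc14 (0.44), Abcg5 (0.77), Cyp2b23 (1.18) and Slc39a4 (1.41), on the log2 scale. In EX mice against WT mice the changes were those of Myl3 (-4.96), Myl2 (-3.98), Tnnt1 (-3.33), Tnnc1 (-3.30), Saa1 (-1.87), Gpx3 (0.72), Rab2a (0.82), Gdap1 (0.86), Morf4l2 (1.07), Orm2 (-1.81), Nudt7 (-1.12), Pygm (0.51) and Sar1b (0.67), on the log2 scale.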

How the results depend on the processing

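The count of genes called between liver and muscle was 6817, and over the 12 alternative settings it lay between 4427 and 7305. With 1 of the 12 arrays left out it lay between 6613 and 6867, and the 2-fold count between 2192 and 2224. With the animal number as a replicate block, 5 named genes gained a call (Atp2a2, Car3, Ckb, Hspa5 and Tnnt1) and no other named call changed; it gave 6659 genes, 2206 of them at least 2-fold, 17 divided pairs, and 3, 16 and 54 changed genes for SIRT1Tg, CR and EX mice. Normexp background correction raised the 2-fold count to 3853. Keeping only probes detected on all 12 arrays left 5842 genes, of which 4427 were called, 1394 of them at least 2-fold, and 3 pairs were divided, since genes silent in one tissue are then not tested. Median scaling gave 49.2% of calls higher in liver, against 43.4%. Without number series terms the counts for SIRT1Tg, CR and EX mice were 1, 43 and 147, and with normexp the EX count was 33. Without the SIRT1Tg liver array of fewest detected probes the counts were 7 for SIRT1Tg, 29 for CR and 74 for EX mice; for CR and EX this was tried after seeing the data. Of the genes named in the text, no called one changed direction under any setting tried, while 69 of the gene-by-setting fits lost a call and 41 gained one, against 6193 that kept theirs. Calls of Alas2, Per2, Clock, Cxcl9, C1s1, Adss, Ampd2, Asrgl1, Hba-a1, Sucla2, Tnfrsf12a, Acadl and Acadm were lost in the lower number series alone, those of Acadvl, Csrp3, Dld and Bckdha in the higher alone, and those of Dbp and Nampt in each. The cause of these shifts was not tested. Dim probes limit the rest: a probe near background gives a bound or no level.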
